A study of Mus musculus with 6 samples.

Results

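The Ifi200 family is a set of mouse genes that lie side by side on chromosome 1 and are induced by interferon. Aim2 lies at one end of the set. The members were the probe sets (the groups of short oligonucleotides that each measure 1 transcript on the array) whose single gene symbol was Aim2, Ifi203, Ifi204, Ifi205, Ifi207, Ifi209, Ifi213 or Mnda. Of these 8 genes, 6 had such a probe set, 8 probe sets in all out of 45037 that are not array controls. Ifi205 had none of its own and shared probe sets with relatives. Mnda, listed in RefSeq as an older name of Ifi211, appeared as the symbol of none. Ifi211 was read only by the probe sets that it shares with Ifi205, given below. The family was picked with the difference between the cell groups already known, so the values of its members are a description and carry no test.

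RNA came from mouse T cell lines of 2 kinds, on 3 arrays each. The 2D11 arrays (replicates 1, 2 and 4) are labelled CD8aa Tregs, which the series title calls Qa-1 restricted regulatory cells. The OvacD8 arrays (replicates 1, 2 and 3) are labelled as OT-1 T cells carrying CD8aa and the alpha beta receptor. OT-1 is a transgenic T cell receptor for an ovalbumin peptide. Each kind was kept in medium with IL-2 together with its own antigen and cells that present it. The labels call each source a T cell clone and give no strain, sex or age of the donor mice, and they leave unsaid whether the replicates were grown apart, so each group may be 1 line and its spread may be technical. Of 14 T cell markers, 2 were called higher in 2D11 and 2 lower, among them Cd6, a receptor that tunes T cell signals (1.85 ± 0.08, a log2 difference, 2D11 minus OvacD8, with its standard error, SE), and Cd247, the CD3 zeta chain (-0.90 ± 0.11). Cd8b1, the CD8 beta chain, was also called lower, at -2.36 ± 0.11, although the labels give CD8aa for both kinds. Cd8a, the CD8 alpha chain, named here because of those labels, was not called at -0.26 ± 0.11. Its 5 probe sets ran from -2.40 to 0.85. Cd3e, at 0.08 ± 0.09, was not called. Over all genes, 6.67% were called.

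The proteins of this family combine a pyrin domain, which binds other pyrin domains, with a HIN domain, which binds DNA, although some members carry only 1 of the 2. AIM2 senses DNA in the cytosol, joins the adaptor ASC (gene Pycard) through its pyrin domain and so activates caspase-1 in an inflammasome. Other members act in the nucleus or beside the STING pathway, and the functions of several mouse members are little known. The gene content of the cluster differs between inbred mouse strains. The members resemble each other closely, so a probe set can read more than 1 of them.

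The cluster holds 14 family genes in the mouse assembly GRCm38.p6, from 173349547 to 174031755 on chromosome 1, a span of 682 kb. In this order Aim2 comes first, at 173349547 to 173466040. Ifi213 follows at 173566280 to 173599348 and Ifi209 at 173630859 to 173647928. Ifi207 (173723424 to 173741831), Ifi204 (173747293 to 173767069) and Ifi203 (173920400 to 173942866) lie farther along, and Ifi205 (174011998 to 174031755) ends the cluster.

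The promoter table of RefSeq (GRCm38.p6) held 12 of the 14 genes, 6 of them members, in 14 windows of 250 bases before an annotated start. Ifi211, the newer name of Mnda, had a window too and was not counted among those 6. The letters GAAANNGAA, a core of the interferon-stimulated response element through which interferon induces genes, were searched on both strands. The windows of Ifi209 (chr1:173630609-173630858, plus strand) and of its relative Ifi214 (chr1:173535958-173536207, minus strand) are shown because they are nearly the same outside that core and differ at its first base. Both are given on the strand of the gene, from the far end to the base before the start. Capitals mark the core, or in Ifi209 the bases that stand in its place.
Ifi209: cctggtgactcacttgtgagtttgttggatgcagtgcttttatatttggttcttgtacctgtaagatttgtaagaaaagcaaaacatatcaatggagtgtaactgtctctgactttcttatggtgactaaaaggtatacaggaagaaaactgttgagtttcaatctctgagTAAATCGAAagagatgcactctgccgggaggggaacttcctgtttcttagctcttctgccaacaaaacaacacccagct
Ifi214: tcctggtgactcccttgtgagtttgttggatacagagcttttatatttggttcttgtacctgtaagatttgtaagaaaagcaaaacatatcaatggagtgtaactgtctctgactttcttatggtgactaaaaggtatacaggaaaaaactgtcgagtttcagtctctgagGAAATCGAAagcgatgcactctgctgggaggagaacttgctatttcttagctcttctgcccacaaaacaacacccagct

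The windows of several members lie partly or wholly inside the annotated span of their gene, and only 30 bases around the core are shown here, capitals again marking it or the bases in its place. The stretches are Ifi213 at chr1:173599326-173599355, Ifi207 at chr1:173741831-173741860 and Ifi205 at chr1:174031870-174031899, all on the minus strand, with Ifi209 at chr1:173630770-173630799 on the plus strand again for comparison. Ifi213 is shown because it separated the groups with Ifi209, Ifi207 because it did not, and Ifi205 because its core has another form.
Ifi213: cgtctctgagGAAATCGAAagctatgaacc
Ifi209: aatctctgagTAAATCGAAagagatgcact
Ifi207: cctagccaggGAAATCGAAaattaagaaca
Ifi205: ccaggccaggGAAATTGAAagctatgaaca

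The core was present in 10 of the 14 family windows and in 7.13% of all 32851 promoter windows of the same length. Its commonest form in the family, GAAATCGAA, occurred in 23 of the 32851 windows, and 7 of these 23 belonged to the family. Counted back from the base before the start (-1), it began at -73 in Ifi213 and at -41 in Ifi207. Ifi209 held it with the substitution G1T, counted from the first base of GAAATCGAA, at -79, where Ifi214 held it unchanged. The Ifi209 and Ifi214 windows were identical at 237 of 251 aligned positions (94.4%). Ifi205 and Ifi211 held it with C6T. The Aim2 window had no core and was 46.0% to 52.4% identical to those of the relatives. These matches describe letters that were chosen after the sequences were seen, so nothing is read from these shares. The family promoters resemble each other, so the windows are not separate observations. Of other letters searched, TTCNNNGAA was in 1 of the 14 family windows and in 7.02% of all windows. TGANTCA was in windows of Ifi209, Mndal and Ifi203 and in 6.75% of all. Whether the core bears on the group differences was not tested.

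The deposited values of each probe set are centred on its median over the 6 arrays, so a value of 1 is 1 log2 unit (2-fold) above that median, and the level of a gene cannot be read. Where the groups do not overlap, the innermost arrays of the groups are mirror images because of this centring. Of the 8 member probe sets, 6 separated the groups without overlap, 5 lower in 2D11 and 1 higher. Over all probe sets, 20.3% separated them, 8.54% lower and 11.7% higher. In the fit of limma (Benjamini-Hochberg adjusted p under 0.05 over all probe sets), 4 member probe sets were called, all lower, where 4.06% of all probe sets were called, 2.05% lower and 2.00% higher. The members were chosen on this contrast, so nothing is read from these shares. The median difference of the 8 was -0.86, and that of all probe sets 0.01.

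**Figure D1:**
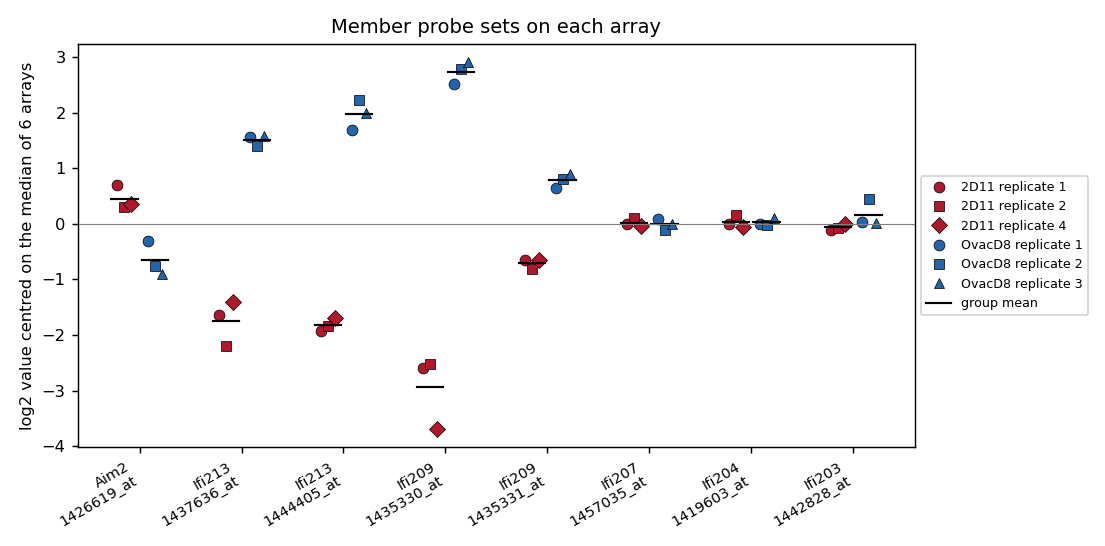
Centred log2 value (vertical axis) of each of the 8 member probe sets (horizontal axis, in the order of the genes on the chromosome) on the 3 arrays of 2D11 (red) and the 3 of OvacD8 (blue), with black lines for group means. Both probe sets of Ifi213 and of Ifi209 are lower on all 2D11 arrays, Aim2 is higher on them, and Ifi207 and Ifi204 overlap.

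Ifi209, also listed as Pyhin1 and encoding a protein with pyrin and HIN domains, had the largest difference among the members. Its probe set 1435330_at stood at -2.60, -2.52 and -3.69 on 2D11 replicates 1, 2 and 4, and at 2.52, 2.78 and 2.91 on OvacD8 replicates 1, 2 and 3. The 3 OvacD8 arrays lay close together, 2D11 replicate 4 was below the other 2D11 arrays, and a gap of 5.04 parted the groups. The difference was -5.67 ± 0.36 (SE, n = 3 per group), a 51.1-fold lower value in 2D11, and ranked 22nd from the lowest of the 45037. The other Ifi209 probe set, 1435331_at, stood at -0.65, -0.80 and -0.65 on 2D11 and at 0.65, 0.81 and 0.90 on OvacD8. It separated the groups in the same direction with a difference of -1.49 ± 0.08, or 2.81-fold. The probe sets of 1 gene thus differed in size by more than their errors, and the mean over both is no single measure of Ifi209.

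Ifi213, also listed as Pydc4 after its pyrin domain, lies next to Ifi209 and was lower in 2D11 on both of its probe sets. Probe set 1437636_at stood at -1.64, -2.21 and -1.41 on 2D11 and at 1.56, 1.41 and 1.58 on OvacD8, a difference of -3.27 ± 0.22 (9.62-fold). Probe set 1444405_at stood at -1.93, -1.84 and -1.69 on 2D11 and at 1.69, 2.24 and 1.99 on OvacD8, a difference of -3.79 ± 0.16 (13.8-fold). The groups were parted by 2.82 and 3.38, and these probe sets were closer in size to each other than those of Ifi209.

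Aim2, the inflammasome sensor, went the other way. Its probe set 1426619_at stood at 0.69, 0.31 and 0.36 on 2D11 and at -0.31, -0.75 and -0.90 on OvacD8. All 2D11 arrays were above all OvacD8 arrays, with OvacD8 replicate 1 nearest to them and a gap of 0.61 between the groups. The difference was 1.11 ± 0.20 (SE, n = 3 per group), a 2.16-fold higher value in 2D11. It was not called over all probe sets, but it was over all genes. With 1 mean value per gene, 3 of the 6 measured members were called, Ifi209 and Ifi213 lower and Aim2 higher, where 6.67% of the 18193 genes were called, 3.30% higher and 3.37% lower. The members were chosen on these values too. A term for the split of the arrays by their spike-in controls left OvacD8 replicate 1 alone against 2D11. The Aim2 difference was then 0.76. With 1 array left out, the call of Aim2 over all genes held in 1 of 6 fits, that without OvacD8 replicate 1, and it ended with the replicate block and after quantile normalization.

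The remaining members gave small differences. Ifi204, a DNA-binding member that has been placed beside STING, stood at 0.00, 0.16 and -0.05 on 2D11 and at 0.00, -0.01 and 0.11 on OvacD8, a difference of 0.01 ± 0.07. Ifi207 stood at 0.00, 0.10 and -0.04 on 2D11 and at 0.09, -0.12 and 0.00 on OvacD8, a difference of 0.02 ± 0.07. Both overlapped between the groups and spanned 0.21 over the arrays, where the median probe set spanned 0.28. Whether these genes were silent or equal in both lines cannot be read from centred values. Ifi203 by its own probe set, 1442828_at, stood at -0.10, -0.07 and -0.01 on 2D11 and at 0.04, 0.45 and 0.01 on OvacD8. The groups were parted by only 0.02, OvacD8 replicate 2 stood apart, and the difference of -0.23 ± 0.13 was -0.09 without that array.

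**Figure D2:**
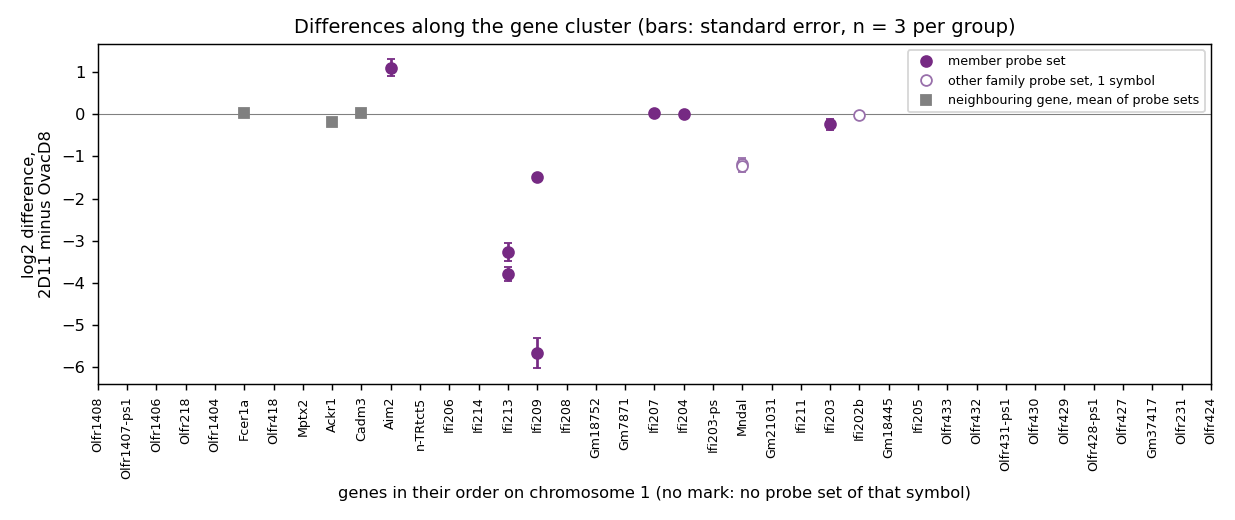
Log2 difference, 2D11 minus OvacD8, with its standard error (vertical axis), for genes in their order along chromosome 1 (horizontal axis), with filled circles for member probe sets, open circles for other family probe sets of 1 symbol and grey squares for neighbouring genes. Ifi213 and Ifi209 lie side by side with the lowest values, Mndal is lower at about -1.2, and Aim2 is the one gene of the cluster drawn clearly above 0.

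Neighbours outside the family were set beside it. Of the 25 other genes within the cluster or among the 10 nearest on either side, most of them olfactory receptor genes and pseudogenes, 3 had a probe set of their own, and these 3 lie on the Aim2 side, where Cadm3 overlaps the first part of the Aim2 span. None of the 3 was called by limma, 0 of them had an unadjusted p under 0.05, and 6.67% of all genes were called. Fcer1a, the IgE receptor alpha chain, stood at 0.03 ± 0.03, Cadm3, an adhesion molecule, at 0.03 ± 0.03, and Ackr1, a chemokine scavenger, at -0.18 ± 0.08 (adjusted p = 0.325). Ackr1 was lower without OvacD8 replicate 1 (-0.26, adjusted p = 0.00709).

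The family was read by 9 further probe sets, 3 with a single symbol outside the list and 6 with several symbols. Mndal, whose product resembles human MNDA, was lower in 2D11 on both of its probe sets. Probe set 1426906_at stood at -0.58, -0.46 and -0.43 on 2D11 and at 0.43, 0.75 and 0.89 on OvacD8, a difference of -1.18 ± 0.13. Probe set 1452231_x_at gave nearly the same value on each array, with a difference of -1.22 ± 0.14. On both, OvacD8 replicate 1 was nearer to 2D11 than the other OvacD8 arrays were. Ifi202b, whose product lacks the pyrin domain, differed by -0.02 ± 0.05 on its own probe set and by 0.01 ± 0.03 on one shared with another locus, and both overlapped.

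The probe sets that Ifi203 shares with a pseudogene, Ifi203-ps, and with unnamed loci pointed in opposite directions. Probe set 1448775_at stood at -1.28, -1.46 and -1.25 on 2D11 and at 1.25, 1.49 and 1.56 on OvacD8, a difference of -2.76 ± 0.11. Probe set 1425008_a_at stood at 0.71, 0.26 and 1.62 on 2D11 and at -0.83, -0.26 and -1.34 on OvacD8, a difference of 1.67 ± 0.46. Neither overlapped between the groups, the first was tight within each group, and the second was spread widely in both. Probe set 1451567_a_at, which names a further locus too, overlapped at -0.16 ± 0.09. With the probe set of Ifi203 alone at -0.23, the 4 probe sets that name Ifi203 ran from -2.76 to 1.67, and no direction can be given for Ifi203.

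Ifi205, an interferon-induced member, was measured only together with relatives, and so was Ifi211, the newer name of the member Mnda. The probe set shared by Mndal, Ifi211, Ifi205 and Ifi204, 1452348_s_at, stood at -1.11, -1.27 and -0.48 on 2D11 and at 0.70, 0.48 and 0.48 on OvacD8, a difference of -1.50 ± 0.23. The one shared by Ifi211 and Ifi205, 1452349_x_at, stood at -0.22, -0.18 and -0.27 on 2D11 and at 0.98, 0.26 and 0.18 on OvacD8, a difference of -0.70 ± 0.23. Without OvacD8 replicate 1 it was -0.44. With a term for the spike-in split, which sets 2D11 against that array alone, it was -1.20. The groups did not overlap on either, and OvacD8 replicate 1 was the highest array on both. Which of the named genes carries these differences cannot be told apart. Over all 17 family probe sets, 10 were lower in 2D11 without overlap, 2 were higher without overlap and 5 overlapped, where 8.54% of all probe sets were lower and 11.7% higher without overlap.

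**Figure D3:**
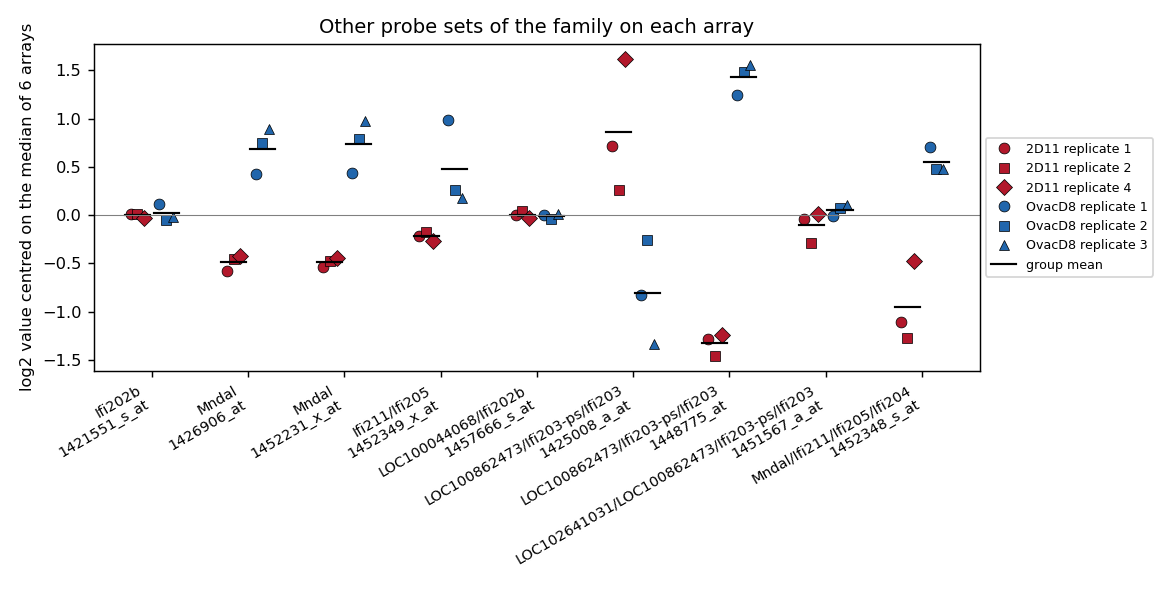
Centred log2 value (vertical axis) of the 9 family probe sets that are not members (horizontal axis, symbols joined by a slash where several are listed) on the 3 arrays of 2D11 (red) and the 3 of OvacD8 (blue), with black lines for group means. The 2 shared Ifi203 probe sets at 1.67 and -2.76 point in opposite directions.

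OvacD8 replicate 1 departs from the other OvacD8 arrays in many genes. Over probe sets spanning at least 0.1, it correlated at r = 0.298 and 0.353 with OvacD8 replicates 2 and 3, which correlated with each other at 0.855 (across probe sets, which are not independent). Its poly-A spike-in controls, bacterial transcripts added before labelling, averaged 0.44, near the -0.09 to 0.73 of the 2D11 arrays and above the -1.41 and -2.13 of the other OvacD8 arrays. On the 5 member probe sets that span at least 1 it lay nearer to its own group. On a scale with the 2D11 mean at 0% and the mean of OvacD8 replicates 2 and 3 at 100%, it stood at 94.4% and 86.9% for the 2 probe sets of Ifi209, at 102% and 89.2% for those of Ifi213, and at 59.3% for Aim2. Over the 1022 genes that differed by at least 1 without that array, its median position was 54.3%. Of these 1022 genes, 479 lay below 50%. For 20 other interferon-induced genes that differed that far, the median position was 20.6%, and 15 of the 20 lay below 50%. None of the 5 member probe sets did, but those of Ifi209 read the same gene, as do those of Ifi213. The members were chosen on all 6 arrays, and the lists with earlier results of these data known. The genes compared here were also kept by their difference without that array, so this contrast was not tested.

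**Figure D4:**
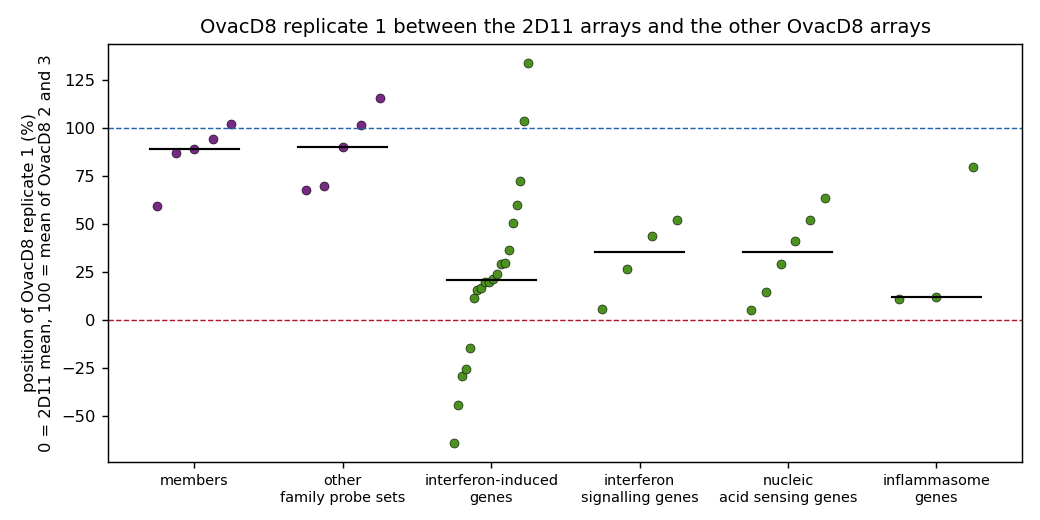
Position of OvacD8 replicate 1 (vertical axis, in percent) between the 2D11 mean (0, red dashes) and the mean of OvacD8 replicates 2 and 3 (100, blue dashes), for probe sets or genes that differ by at least 1 without that array, by list (horizontal axis), with black lines for medians. Member probe sets sit between 59.3% and 102%, and the median of the interferon-induced genes is 20.6%.

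Other interferon-induced genes were lower in 2D11 where they were called. Of 37 measured, 0 rose and 6 fell (limma, Benjamini-Hochberg over all genes), against 6.67% of all genes called, and 1 and 19 had an unadjusted p under 0.05 in those directions. The median difference was -0.76, and that of all genes 0.01. Rtp4, a chaperone of receptors, fell by 3.23 ± 0.45 (adjusted p = 0.0218, probe sets from -6.14 to -0.33), Ifit3, an antiviral RNA-binding protein, by 1.82 ± 0.18 (0.00841) and the GTPase Gbp3 by 1.67 ± 0.25 (0.0261). Without OvacD8 replicate 1, on which this list averaged 0.12 against 0.95 and 0.94 on OvacD8 replicates 2 and 3, 1 rose and 24 fell. With any of the other 5 left out, 2 or 3 fell. Ifit3 passed in each of the 6 fits with 1 array left out, Rtp4 in 1 of them (that without OvacD8 replicate 1; adjusted p up to 0.091) and Gbp3 in 2 (up to 0.111). With a term for the spike-in split, which sets 2D11 against OvacD8 replicate 1 alone, the Gbp3 difference was -1.71.

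Of 23 genes of interferon signalling, 0 rose and 2 fell, against 1 and 8 at an unadjusted p under 0.05, with a median difference of -0.17. Irf9, a DNA-binding factor of the interferon response, stood at -0.44, -0.50 and -0.62 on 2D11 and at 0.44, 1.39 and 1.26 on OvacD8. It fell by 1.55 ± 0.27 (adjusted p = 0.0403), and with 1 array left out it passed in 1 of 6 fits, that without OvacD8 replicate 1 (adjusted p up to 0.140). Jak2, a kinase that binds cytokine receptors inside the cell, fell by 0.32 ± 0.05 (0.0255), and passed in 2 of those fits (up to 0.10). Without OvacD8 replicate 1, 1 gene rose and 5 fell. Without 2D11 replicates 1 or 4 or OvacD8 replicate 3, 0 were called, and without 2D11 replicate 2 or OvacD8 replicate 2, 1 was.

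Of the partners of AIM2 in the inflammasome, Casp1 was called higher in 2D11 and Pycard was not called. Casp1, which encodes caspase-1, stood at 0.71, 0.49 and 0.76 on 2D11 and at -0.49, -0.74 and -0.82 on OvacD8. It rose in 2D11 by 1.34 ± 0.12 (adjusted p = 0.00587), the same direction as Aim2, and passed with any 1 array left out. Pycard, named here after its values were seen because it encodes the adaptor that AIM2 joins, stood at -0.23, -0.18 and -0.25 on 2D11 and at 0.19, 0.71 and 0.67 on OvacD8. It did not pass at -0.74 ± 0.15 (adjusted p = 0.0601), and it did without OvacD8 replicate 1 (-0.91, adjusted p = 0.000718), and its 3 probe sets ran from -2.22 to 0.01. Of 18 measured inflammasome genes, 2 rose and 0 fell, the other being Nek7, a kinase that binds NLRP3, at 0.32 ± 0.03 (adjusted p = 0.0113, and 0.0599 without 2D11 replicate 1). At an unadjusted p under 0.05 the counts were 5 and 3, and the median difference was -0.04. Without OvacD8 replicate 1, 3 rose and 5 fell, and without 2D11 replicate 1 or OvacD8 replicate 3, 1 rose.

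Other sensors of DNA and RNA in the cell went both ways. Of 27 measured genes, 1 rose and 2 fell, against 6 and 6 at an unadjusted p under 0.05, with a median difference of 0.00. Unc93b1, which carries nucleic acid sensing Toll-like receptors to endosomes, fell by 2.04 ± 0.33 (adjusted p = 0.033) and Ddx58, the RNA sensor RIG-I, by 0.96 ± 0.18 (0.0459). Ikbke, a kinase of IRF3, rose by 0.73 ± 0.13 (0.0379). Of the 6 fits with 1 array left out, each of the 3 passed in 1, that without OvacD8 replicate 1, with adjusted p up to 0.124, 0.157 and 0.131 in the others. Without that array 4 of the list rose and 8 fell. With that term for the spike-in split, and so against OvacD8 replicate 1 alone, Unc93b1 stood at -1.47, Ddx58 at -0.60 and Ikbke at 0.98. Without 2D11 replicates 1, 2 or 4 or OvacD8 replicate 2, 0 were called, and without OvacD8 replicate 3, 1 was.

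This family is also expressed in myeloid cells, and the cultures held antigen-presenting cells. Of 19 macrophage and dendritic cell markers, 0 were called by limma and 3 had an unadjusted p under 0.05: Cd68, Cd14 and Batf3, named here after their values were seen. Cd68, a lysosomal protein of macrophages, stood at -0.71, -0.51 and -0.48 on 2D11 and at 0.48, 3.34 and 3.44 on OvacD8, a difference of -2.99 ± 0.87 (adjusted p = 0.144). Cd14, a receptor for lipopolysaccharide, stood at -0.81 ± 0.16 (0.0528) and Batf3, a dendritic cell factor that T cells also express, at 1.34 ± 0.36 (0.117). Without OvacD8 replicate 1, 2 of the 19 were called lower in 2D11, Cd68 (-3.96, adjusted p = 0.000284) and Cd14 (-0.98, 0.00202), and 2 higher, Lyz2 (2.56, 0.036) and Batf3 (0.96, 0.0183). With a term for the spike-in split, and so against OvacD8 replicate 1 alone, Cd68 stood at -1.04, Cd14 at -0.48 and Batf3 at 2.10. Lyz2 then stood at -2.50. Csf1r (-1.20), Mpeg1 (-3.15), Fcgr3 (-3.34) and Msr1 (-0.49) were highest on that array, and without it stood at -0.02, 0.12, 0.13 and 0.01. The mean of the 19 lay between -0.04 and 0.07 on the 2D11 arrays, at 0.07 and 0.04 on OvacD8 replicates 2 and 3, and at 0.56 on OvacD8 replicate 1. This mean hides opposite values: on OvacD8 replicates 2 and 3 Cd68 stood at 3.34 and 3.44 and Lyz2 at -1.91 and -2.82. The widest of the 19, Lyz2, the lysozyme of macrophages, ranged from -2.82 on OvacD8 replicate 3 to 2.70 on replicate 1. On that array Csf1r, Mpeg1, Lyz2 and Fcgr3 were at least 1 above every other array. Without that array the differences of Ifi209 were -5.78 and -1.56, those of Ifi213 -3.25 and -3.93, and that of Aim2 1.28. With it they were -5.67, -1.49, -3.27, -3.79 and 1.11. Cd68 and Cd14 differed more without it, so these values cannot show the part of myeloid transcripts. The part of Cd68 or other myeloid transcripts in the member differences was not tested. Of 11 B cell markers, 0 were called by limma and 0 had an unadjusted p under 0.05, and their mean lay between -0.03 and 0.02 on all arrays. The widest, Cd22, spanned 0.19. Since levels were removed, it cannot be read which markers were absent.

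The genes outside the family whose values over the 6 arrays were most like a member were found by Pearson correlation among 2020 genes that span at least 1. The group difference alone raises such correlations, and 113 to 316 genes exceeded 0.95 for each probe set, so these names are a description. For Aim2 they were Klf11 (r = 0.993) and E330020D12Rik (0.993). For Ifi209 1435330_at they were Abhd4 (0.999) and Prxl2c (0.998), and for 1435331_at Irf5 (0.999) and Trim30d (0.998). For Ifi213 1437636_at they were Rgs10 (0.999) and Cd8b1 (0.996), and for 1444405_at Tm6sf1 and Atp10a (1.00 and 0.999).

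Leaving out 1 array at a time left the differences of the 5 wide member probe sets close to their values. That of Ifi209 1435330_at ran from -5.88 to -5.30, that of 1435331_at from -1.56 to -1.43, those of Ifi213 from -3.44 to -3.04 and from -3.93 to -3.66, and that of Aim2 from 0.98 to 1.28. Ifi204 (-0.06 to 0.05) and Ifi207 (-0.03 to 0.07) changed sign among these fits. In each of these 6 fits, the 4 probe sets of Ifi209 and Ifi213 were called, and Aim2 was called in the one without OvacD8 replicate 1. That fit called 10.6% of all probe sets, and the other 5 called 1.80% to 2.25%.

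**Figure D5:**
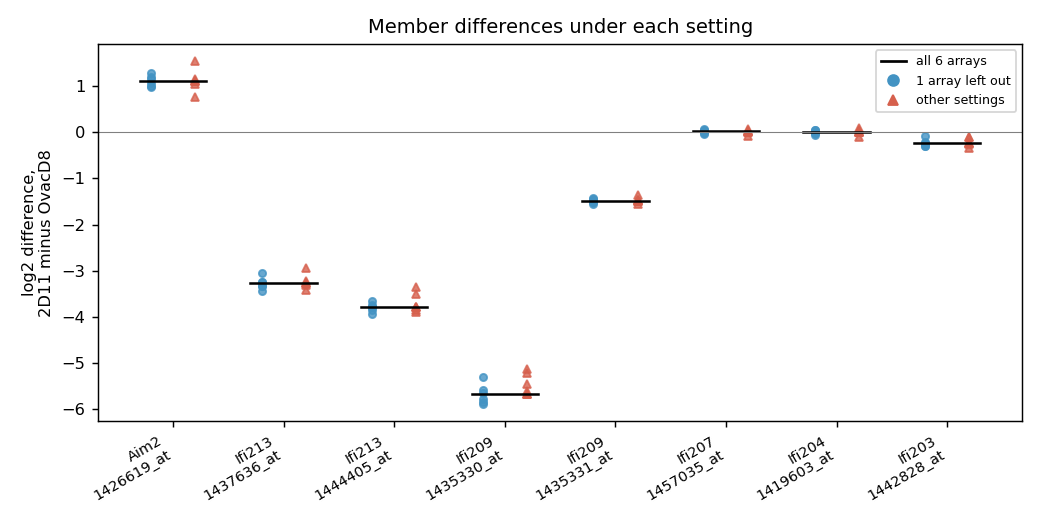
Log2 difference, 2D11 minus OvacD8 (vertical axis), of each member probe set (horizontal axis) with all 6 arrays (black line), with 1 array left out (blue circles) and under the other settings (red triangles). The differences of Ifi209 and Ifi213 stay below -1.3, that of Aim2 stays between 0.76 and 1.54, and those of Ifi207 and Ifi204 lie on both sides of 0.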

How the data were processed

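The series holds 6 arrays of 45101 probe sets, 3 per group. Per the submitters' processing notes the authors made the values with RMA, whose version is not given in the sources used here. The deposited values were read as log2: the base is not stated, and the widest probe set spans 11.4, beyond the natural log of a 16-bit range (11.1). The median of each probe set lies within 5e-07 of 0, a centring that no source mentions. With 3 arrays a group, their number limits the precision.

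Control probe sets (64) were left out. The sample titles gave each array its group and number. The platform table, whose annotation can be old, gave 1 symbol to 34945 probe sets, several to 932 and none to 9160, and the Entrez identifiers of all 17 family probe sets were looked up in RefSeq (GRCm38.p6), which held each of them. The groups were compared with limma 3.58.1 in R 4.3.3 (lmFit and eBayes, two-sided, 2D11 minus OvacD8), per probe set for the members and per gene (mean of its probe sets, 18193 genes) for the lists, with Benjamini-Hochberg adjustment over all tested. The members and lists were chosen with earlier results of these data known. Named from each list were up to 3 called genes by size, or where none was called the gene with the widest range, neighbours only from a difference of 1, and for the members the 2 most correlated genes. The position scale of OvacD8 replicate 1 and the bases GAAANNGAA were chosen after the values and sequences were seen. Sequences came from RefSeq, searched with pandas 2.3.3, and aligned globally with Biopython 1.88. Tested on simulated arrays of 45037 probe sets, the fit called 43% of 100 probe sets changed by 1 and 63% of 100 changed by 2, and for 18193 genes 58% and 86%. The fits were repeated without each array in turn, with a block for the number in the title, and with array weights. Further settings were quantile normalization, robust variances, a filter on range, probe set classes and the widest probe set of a gene. The last was a term for the split of the arrays by poly-A spike-in level. Only OvacD8 replicates 2 and 3 were on the low side of that split, so the term left OvacD8 replicate 1 alone against 2D11.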

Additional observations from a re-analysis of the deposited data

How the results depend on the processing

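Under every alternative run, Ifi209, Ifi213 and Aim2 kept their direction. Their groups do not overlap, so no setting but quantile normalization could have reversed it, and this is no test of the direction. Of the 8 member probe sets, 4 were called over all arrays (4.06% of all probe sets), 3 with the replicate block (0.508%; Ifi209 1435331_at lost its call), 5 without OvacD8 replicate 1 (10.6%), 5 among probe sets spanning at least 0.1 (10% of them), and 6 with array weights (38.2%), where limma warned that the weights did not converge. Centring removed the levels, so no filter on dim probe sets could be run.

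The replicate numbers were not taken as pairs: same-numbered arrays deviated from their group means with r = -0.03 for number 1 and 0.21 for number 2. As a block, numbers 3 and 4 each stood in 1 group only, so the difference rested on replicates 1 and 2 of each group. The calls then fell from 1827 to 229 probe sets and from 1214 to 202 genes. The lists gave 1 inflammasome gene, 0 nucleic acid sensing, 0 interferon signalling and 0 interferon-induced genes. The block also moved the shared Ifi203 probe set 1425008_a_at from 1.67 to 1.03. With array weights the calls were 17219 probe sets and 7391 genes, and 11, 19, 15 and 28 genes of these lists, with 1 of the 3 neighbours. Among probe sets spanning at least 0.1, 2962 were called, with 4 inflammasome and 5 nucleic acid sensing genes. A term for the spike-in split set 2D11 against OvacD8 replicate 1 alone, so its counts of calls are not given. Taking only the widest probe set per gene gave 1 inflammasome and 1 interferon signalling gene, and without _x_at, _s_at and _a_at probe sets 1 interferon signalling gene. Leaving out 1 array gave 811 to 4773 probe sets, 523 to 3129 genes, 1 to 8 inflammasome, 0 to 12 nucleic acid sensing, 0 to 6 interferon signalling, 2 to 25 interferon-induced and 0 to 1 neighbouring genes, the highest each time without OvacD8 replicate 1. Of the probe sets called, 49.4% were higher in 2D11, against 37.8% of 1788 after quantile normalization. The cause of these changes was not tested.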
